A study of Homo sapiens with 3 samples.

Results

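POU5F1-retaining cells were compared with POU5F1-negative cells inside a single library, labelled day 6 of differentiation towards neural progenitor cells, of the established human embryonic stem cell line H9. Of the 16073 barcodes of that library, 975 had 5000 to 20000 unique molecular identifiers (UMIs, each marking 1 captured RNA molecule) with 5 to 25% of them from mitochondrially encoded genes. Of these 975 cells, 605 held at least 2 POU5F1 UMIs and are called retaining, 151 held none and are called negative, and the 219 cells with exactly 1 UMI were on neither side. The members were thus chosen by their measured POU5F1 UMIs. The 756 compared cells were part of 39687 barcodes in the series.

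The cells came from a culture grown with mTeSR medium and a STEMdiff SMADi Neural Induction Kit, and the libraries were made in droplets (inDrop, TruDrop version). Both sides come from 1 library of 1 culture, so the cell line, medium, kit and labelled day are shared and no comparison has a replicate. The series holds 1 further library labelled day 2 and 1 labelled day 0. The titles add the letter A for the libraries labelled day 6 and day 0 and B for that labelled day 2, and do not say what it stands for.

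Marker genes did not follow the labelled days. Levels are given as CPM, the UMIs of a gene scaled to 1000000 UMIs summed over the cells. In cells filtered in the same way, those labelled day 6 held 226.4 CPM of POU5F1, those labelled day 2 held 1068 CPM and those labelled day 0 held 1.83 CPM. PAX6, a transcription factor of neural progenitors, was at 15.3 CPM in cells labelled day 2 and at 195 CPM in cells labelled day 0. The libraries also shared barcodes, with 2110 of the library labelled day 6 also listed for that labelled day 2 and 2009 for that labelled day 0. Among the compared cells these were 57 and 61 retaining and 7 and 18 negative cells. Leaving out all cells with a shared barcode kept 495 retaining and 128 negative cells.

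POU5F1 encodes OCT4, a POU domain transcription factor that binds DNA together with SOX2 and holds pluripotent cells in their undifferentiated state. Blocking the SMAD signals of the activin and BMP pathways turns human pluripotent cells towards neural ectoderm, and POU5F1 is lost on the way as genes such as PAX6, SOX1 and the forebrain factors LHX2 and FEZF2 come on. Cells of a culture do not pass through these steps in unison, so early and late cells can be found side by side.

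The POU5F1 counts chose the members and are given only as a description. Retaining cells held a median of 3 and at most 14 POU5F1 UMIs, which amounts to 306 CPM (95% interval 293 to 319), against 0 of 1484647 UMIs on the negative side. The 95% interval of that count of 0 reaches up to 2.48 CPM, where 3 UMIs on that side would be 2.02 CPM. The 219 cells with 1 UMI stood at 106.5 CPM. At the mean POU5F1 level of all 975 cells, a cell of the negative side's median depth would hold 1.90 POU5F1 UMIs on average.

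The median depths of the sides were not close. Retaining cells had a median of 11545 UMIs and 3963 genes, against 8388 UMIs and 3153 genes in negative cells. The cells with 1 POU5F1 UMI had a median of 8144 UMIs. The median mitochondrial share was close, at 14.8% in retaining and 14.3% in negative cells. Results were therefore also computed within 4 bands of UMIs per cell and after thinning every cell to 5000 UMIs, and the part of depth in each result beyond those values was not tested.

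**Figure D1:**
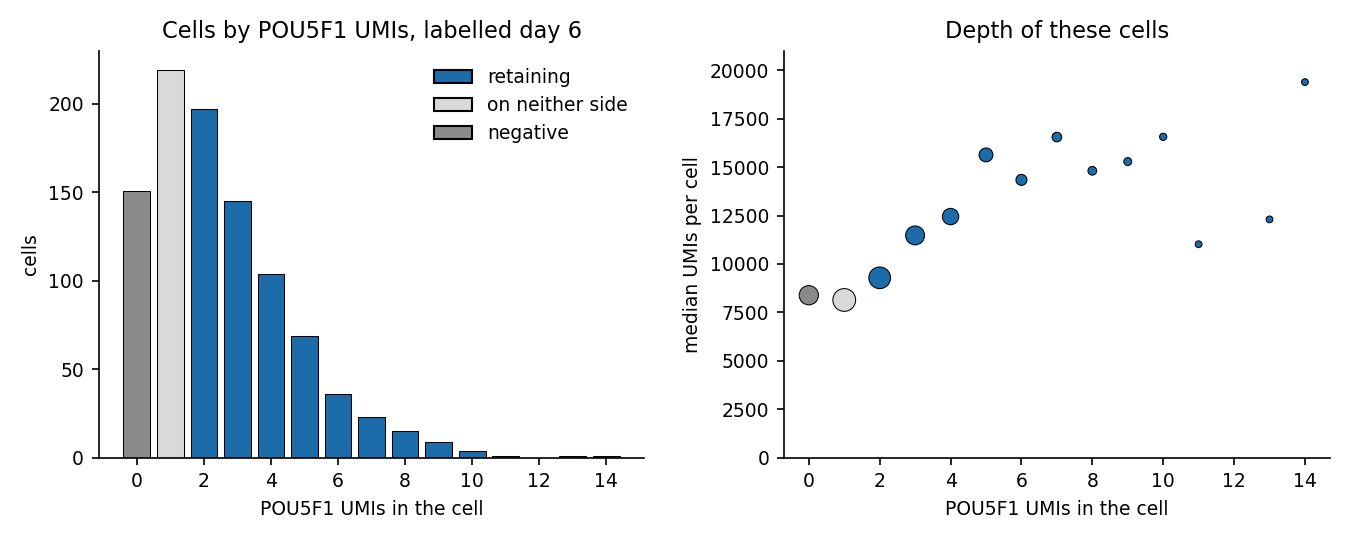
Left, number of cells of the library labelled day 6 with each number of POU5F1 UMIs (blue retaining, light grey on neither side, dark grey negative). Right, median UMIs per cell of the same cells, with point area growing with the number of cells. The 197 cells with 2 POU5F1 UMIs had a median of 9287 UMIs per cell and the 145 cells with 3 had 11474, against 8388 for the 151 cells with none.

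Summed over cells, 7527 genes reached 20 CPM on at least 1 side. Of these, 185 were at least 1.5 times higher in retaining cells (2.46% of the genes) and 391 were at most 1/1.5 times as high (5.19%), while 6951 lay between. The median log2 ratio of all these genes was -0.03. With other scaling factors (TMM) the split was 275 higher and 276 lower genes. The changes were lopsided in size, since no gene was 4 times higher in retaining cells, where the highest ratio was 2.88, whereas 36 genes were at most 1/4 as high. All ratios are of CPM, retaining over negative, and their 95% intervals are exact conditional binomial intervals that cover counting error only. Of the 185 higher genes, 97 passed the 20 CPM limit through the retaining side alone, and of the 391 lower genes, 206 through the negative side alone, so such genes had to differ.

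**Figure D2:**
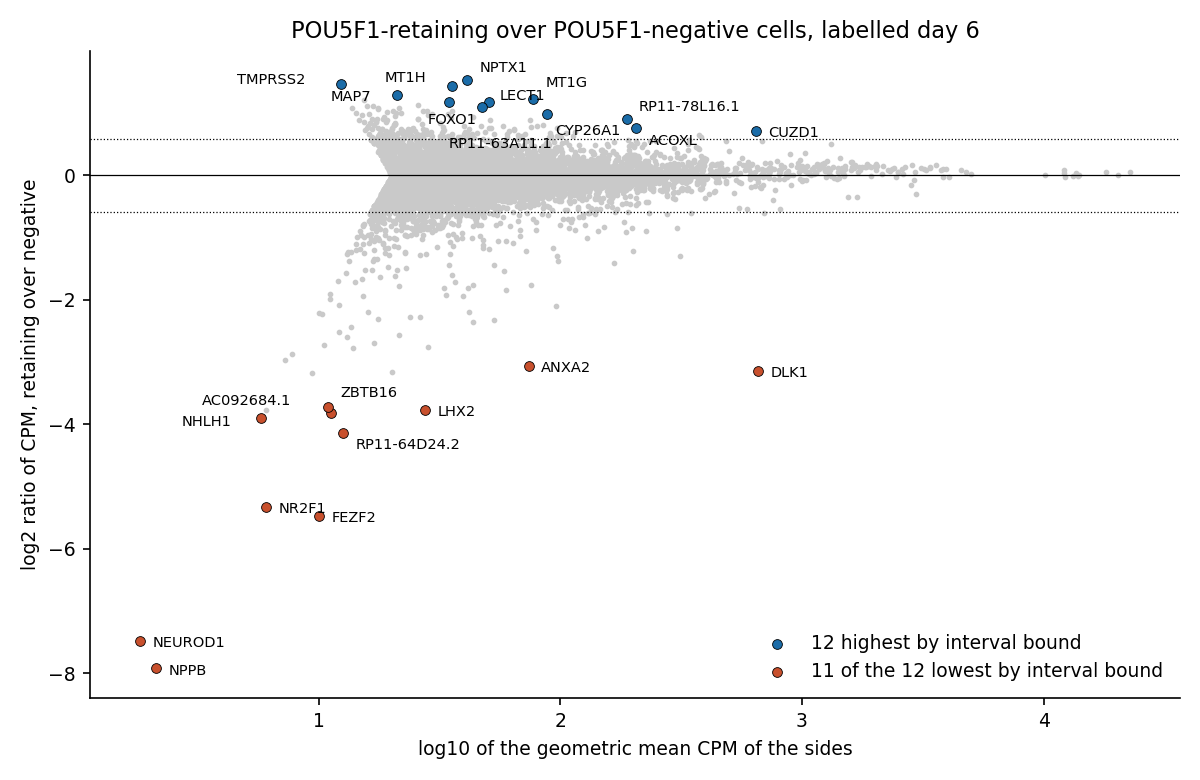
Log2 ratio of CPM, retaining over negative cells, against the geometric mean CPM of the sides (log10) for genes with at least 20 CPM on 1 side. Blue points are the 12 highest and red points 11 of the 12 lowest genes by the interval bound nearest to a ratio of 1, and dotted lines mark 1.5-fold. The lower genes reach a ratio of 0.00413 (NPPB), while the highest ratio is 2.88 (NPTX1).

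The 12 genes that stood highest in retaining cells included secreted proteins, metallothioneins, a retinoic acid enzyme and 2 genes named only by clone, which the annotation used here does not list. NPTX1, a secreted neuronal pentraxin, had 513 UMIs (69.8 CPM) in retaining cells and 36 UMIs (24.25 CPM) in negative cells, a ratio of 2.88 (2.05 to 4.16). CUZD1, the most abundant of the 12, had 823 CPM in retaining and 501 CPM in negative cells, a ratio of 1.64 (1.52 to 1.77). It was seen in 580 of 605 retaining (95.9%) and 111 of 151 negative cells (73.5%), or in 88.9% and 64.2% after thinning each cell to 5000 UMIs, so most negative cells carried it. The share was 0.521% in cells labelled day 0, at a median of 10726.5 UMIs. CYP26A1, which breaks down retinoic acid, had 123 CPM in retaining and 62.6 CPM in negative cells, a ratio of 1.97 (1.59 to 2.46). Both CUZD1 and CYP26A1 had been taken up as genes of the library labelled day 6, which held more of them than the libraries labelled day 2 (24.3 and 26.6 CPM) and day 0 (0.458 and 0.275 CPM).

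FOXO1, a forkhead transcription factor downstream of insulin signalling, had 52.0 CPM in retaining and 22.9 CPM in negative cells, a ratio of 2.27 (1.60 to 3.33). LECT1, a membrane protein also named chondromodulin, had 76.0 CPM in retaining and 33.7 CPM in negative cells, a ratio of 2.26 (1.69 to 3.08). MAP7, a microtubule binding protein, had 32.8 CPM in retaining and 13.5 CPM in negative cells, and TMPRSS2, a membrane serine protease, 20.6 CPM in retaining and 7.41 CPM in negative cells. Both passed the limit through the retaining side alone. ACOXL, an acyl-CoA oxidase-like gene, had 268 CPM in retaining and 159 CPM in negative cells, a ratio of 1.69 (1.47 to 1.94). The clone-named genes RP11-78L16.1 and RP11-63A11.1 had ratios of 1.87 and 2.14.

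Metallothioneins, small cysteine-rich proteins that bind zinc and copper, made up 2 of the 12, and the family was then looked at as a whole, a choice made after these values were seen. MT1H had 428 UMIs (58.3 CPM) in retaining and 32 UMIs (21.6 CPM) in negative cells, a ratio of 2.70 (1.886 to 4.003). MT1G stood at 118 CPM in retaining and 50.5 CPM in negative cells, a ratio of 2.33 (1.84 to 2.99). MT1X at 2.04 (1.39 to 3.10) and MT1F at 1.98 (1.40 to 2.87) were also past 1.5-fold, while MT2A at 1.37 (1.21 to 1.56) and MT1E at 1.22 (0.957 to 1.57) were not. The messages sat in few cells, with 10 cells holding 40.7% of the MT1H UMIs of the retaining side and 84.4% of the 32 UMIs of the negative side. These genes are near-identical in sequence, so reads may be split between them and single members are uncertain. In cells with 5 to 10% mitochondrial UMIs, MT1H and MT1G had ratios of 0.927 and 0.988.

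The 200 bases before the gene start (RefSeq, GRCh38.p14, plus strand) are shown for 3 metallothionein genes, because all 3 carry a short word several times there. Of the 3, MT2A was not past 1.5-fold. They lie at chr16:56669614-56669813 (MT1H), chr16:56682270-56682469 (MT1X) and chr16:56608384-56608583 (MT2A). Capitals mark matches on either strand to TGCNCNC, where N is any base, a loose form of the metal response element core.
MT1H: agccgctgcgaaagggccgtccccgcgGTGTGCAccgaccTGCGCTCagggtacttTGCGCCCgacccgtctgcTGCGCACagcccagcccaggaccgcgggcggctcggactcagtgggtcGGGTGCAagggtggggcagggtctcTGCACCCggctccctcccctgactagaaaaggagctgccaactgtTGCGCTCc
MT1X: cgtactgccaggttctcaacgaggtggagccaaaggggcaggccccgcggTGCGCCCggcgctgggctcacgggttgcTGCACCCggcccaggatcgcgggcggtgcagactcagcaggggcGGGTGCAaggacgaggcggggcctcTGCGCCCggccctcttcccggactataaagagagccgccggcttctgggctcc
MT2A: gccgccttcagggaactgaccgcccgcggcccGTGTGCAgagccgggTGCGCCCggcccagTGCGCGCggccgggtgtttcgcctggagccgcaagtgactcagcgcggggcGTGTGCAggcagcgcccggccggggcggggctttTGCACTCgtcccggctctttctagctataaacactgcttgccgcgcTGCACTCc
There were 7 matches before MT1H, 4 before MT1X and 6 before MT2A. Of 35116 promoters of the same length, 0.988% hold at least 4 and 43.0% at least 1. The octamer ATGCAAAT, a sequence that POU factors bind, was also searched on both strands. It was found in 0 of 11 promoters of the 7 highest genes that the promoter table lists and in 0 of 6 promoters of the 5 lowest genes that it lists, against 1.31% of all promoters. At so low a share, 11 or 6 promoters would most often hold none, so these counts show no lack of the octamer. A match is a description of the letters and not evidence of binding.

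Some genes of pluripotency were higher in retaining cells, by modest factors. Of 15 measured members of the core list without POU5F1 itself, 4 were at least 1.5 times higher, where 2.46% of all genes were, and none was lower past that fold, with a median log2 ratio of 0.34 against -0.03 for all genes. The count was 1 of 15 after thinning to 5000 UMIs before the split and 0 of 15 with the cells of 1 POU5F1 UMI added to the negative side. L1TD1, an RNA binding protein of pluripotent cells, had 69.8 CPM in retaining and 37.7 CPM in negative cells, a ratio of 1.85 (1.40 to 2.49). ZFP42, the zinc finger protein REX1, had 114 CPM in retaining and 71.4 CPM in negative cells, a ratio of 1.60 (1.31 to 1.98). PODXL, the sialomucin that carries stem cell surface epitopes, had 469 CPM in retaining and 299.7 CPM in negative cells, a ratio of 1.56 (1.42 to 1.73). ESRG, a long non-coding RNA of pluripotent cells, had 120.4 CPM in retaining and 77.5 CPM in negative cells, a ratio of 1.55 (1.28 to 1.90). Just short of the fold came DNMT3B, a DNA methyltransferase, at 589.7 CPM in retaining and 402 CPM in negative cells, a ratio of 1.47 (1.35 to 1.60), and DPPA4 at 1.44 (1.26 to 1.64).

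Other members of that list differed little or were scarcely detected. SOX2, which is shared by pluripotent and neural cells, had 794 CPM in retaining and 739.6 CPM in negative cells, a ratio of 1.07 (1.01 to 1.15). LIN28A, which blocks let-7 maturation, had a ratio of 1.16 (1.11 to 1.21), SALL4 of 1.09 (0.989 to 1.20) and LIN28B of 0.911 (0.789 to 1.06). NANOG had 4 UMIs in retaining cells and none in negative cells, TDGF1 had 32 and 3 UMIs, and FOXD3 had none on either side. In the library labelled day 2 the same genes stood at 54.0 CPM (NANOG), 524 CPM (TDGF1) and 26.6 CPM (FOXD3). Retaining cells thus held POU5F1 with little NANOG or TDGF1 and no FOXD3 UMI. Their list sum of 5479 CPM compared with 4466 CPM in negative cells, a ratio of 1.23 (1.20 to 1.26). The same list summed to 5401 CPM in cells labelled day 2 and 2506 CPM in cells labelled day 0. The name given to the retaining side therefore rests on POU5F1, not on a full set of pluripotency genes.

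POU5F1B, a near-copy of POU5F1 on chromosome 8, was left out of all counts as circular. It had 159.6 CPM in retaining and 59.9 CPM in negative cells, and reads may be split between the copies.

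The list of cadherins and epithelial genes was mixed, with 2 of 10 measured members higher (2.46% of all genes) and 3 lower (5.19%) past the fold. Its median log2 ratio was 0.02, with sums of 2271 CPM in retaining and 2483 CPM in negative cells (ratio 0.914, 0.882 to 0.948). CDH1, the epithelial cadherin, had 42.3 CPM in retaining and 23.6 CPM in negative cells, a ratio of 1.80 (1.26 to 2.63), and EPCAM, an epithelial adhesion molecule, 41.3 CPM in retaining and 20.9 CPM in negative cells, a ratio of 1.98 (1.36 to 2.96). CDH2, the neural cadherin, had 199.9 CPM in retaining and 489.7 CPM in negative cells, a ratio of 0.408 (0.373 to 0.447). FN1, the matrix protein fibronectin, had a ratio of 0.504 and ZEB1, a repressor of CDH1, of 0.634. CLDN6, a tight junction protein of early embryonic cells, had 826 CPM in retaining and 562 CPM in negative cells, a ratio of 1.47 (1.37 to 1.58).

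Neural progenitor genes as a group were lower in retaining cells, while forebrain and eye field genes were mixed. Among the neural progenitor genes, 22 were measured. Retaining cells had 13 of them at or under 1/1.5 times the negative level and none past the fold in the other direction, with a median log2 ratio of -1.61. Of all genes, 5.19% were that low. Of the 22, 9 passed the 20 CPM limit through the negative side alone and had to be lower. The list sums differed less, at 1585 CPM in retaining and 2143 CPM in negative cells (ratio 0.740, 0.711 to 0.770). Of 7 measured forebrain and eye field genes, 4 were lower past the fold (5.19% of all genes) and 3 lay within it. Of the 7, 3 passed the limit through the negative side alone and had to be lower. That list summed to 682 CPM in retaining and 837 CPM in negative cells (ratio 0.814, 0.765 to 0.867). PAX6 had 174 UMIs (23.7 CPM) in retaining and 177 UMIs (119 CPM) in negative cells, a ratio of 0.199 (0.160 to 0.246). LHX2, a LIM homeodomain factor of forebrain and eye field, had 7.49 CPM in retaining and 102 CPM in negative cells, a ratio of 0.0736 (0.0531 to 0.101). FEZF2, a zinc finger factor of the forebrain, had 11 UMIs in 5 retaining cells and 99 UMIs in 26 negative cells, a ratio of 0.0225 (0.0109 to 0.0420).

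SIX3, an eye field and forebrain factor, had 20.4 CPM in retaining and 62.0 CPM in negative cells, a ratio of 0.330 (0.253 to 0.432). SOX1 had a ratio of 0.137 (0.0748 to 0.246), the Notch target HES5 of 0.152 (0.0912 to 0.2496), and the nuclear receptors NR2F1 and NR2F2 of 0.0248 (0.00955 to 0.0545) and 0.155 (0.104 to 0.228). Not all neural genes took part. OTX2, a homeodomain factor of the anterior neural plate, had 107 CPM in retaining and 104 CPM in negative cells, a ratio of 1.03 (0.868 to 1.24). SOX21, LHX5, ZIC2, HESX1 and FEZF1 had ratios of 1.06, 1.09, 1.21, 1.29 and 1.24, none past the fold. FEZF1 was also abundant on both sides, with 425 CPM in retaining and 341 CPM in negative cells. The retaining cells thus carried a set of early anterior neural genes at levels near those of the negative cells.

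**Figure D3:**
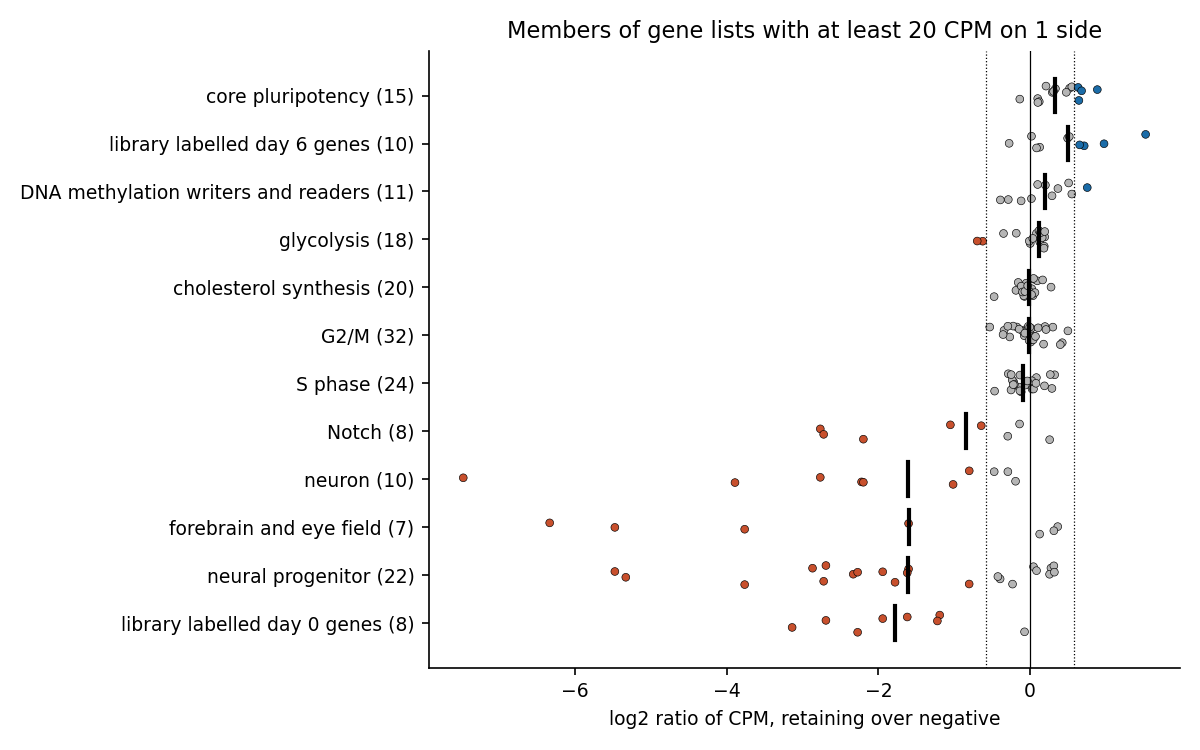
Log2 ratio of CPM, retaining over negative cells, for the members of 12 gene lists with at least 20 CPM on 1 side (number in brackets). Points are genes, blue where at least 1.5 times higher and red where at most 1/1.5 times as high in retaining cells, and black bars are list medians. Neural progenitor members spread down to the far left, with a median of -1.61, while the 24 S phase and 32 G2/M genes stay between the dotted lines at 1.5-fold. Of all genes, 92.3% lie between these lines.

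DLK1, a secreted and membrane-bound Notch-related ligand, was the most abundant gene among the 12 lowest. It had 1628 UMIs (222 CPM) in retaining and 2896 UMIs (1951 CPM) in negative cells, a ratio of 0.114 (0.107 to 0.121). Its UMIs on the negative side were uneven, with 8 of 151 cells holding 50% of them. DLK1 is also a gene of the library labelled day 0, at 3316 CPM there. Of 8 measured genes of that library, 7 were lower in retaining cells past the fold, with sums of 494 CPM in retaining and 2645 CPM in negative cells, where 5.19% of all genes were that low. Of the 8, 3 passed the limit through the negative side alone. These lists were drawn from the libraries of the same series and are no independent evidence of direction.

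Several of the lowest genes rested on a handful of negative cells. NPPB, a natriuretic peptide precursor, had 1 UMI in retaining cells and 49 UMIs in 4 negative cells. NEUROD1, a transcription factor of young neurons, had 1 UMI in retaining cells and 36 UMIs in 6 negative cells, 5 of which also held NHLH1, another factor of young neurons. ANXA2, a membrane binding annexin, had 25.6 CPM in retaining and 214 CPM in negative cells, and 4 cells held 50% of its negative UMIs. The 4 cells with NPPB all held ANXA2. ZBTB16, a zinc finger factor, had 22 UMIs in retaining and 59 UMIs in negative cells, and the clone-named RP11-64D24.2 and AC092684.1 had ratios of 0.0570 and 0.0706.

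The neuron list shares DLL1 and DLL3 with the Notch list. Of its 10 measured members, 7 were lower in retaining cells past the fold (5.19% of all genes) and none was higher, with a median log2 ratio of -1.61. Of the 10, 5 passed the limit through the negative side alone and had to be lower, and the list sum ratio was 0.670 (0.637 to 0.705). STMN2, which regulates microtubules in neurons, had a ratio of 0.574, MAP2 of 0.495 and ELAVL3, a neuronal RNA binding protein, of 0.214. In the Notch list 5 of 8 measured members were lower past the fold (5.19% of all genes), and 3 of the 8 passed the limit through the negative side alone. The ligand DLL1 had 10.9 CPM in retaining and 74.1 CPM in negative cells, a ratio of 0.147 (0.109 to 0.198), DLL3 had a ratio of 0.218 and JAG1 of 0.483, whereas the receptors NOTCH2 and NOTCH3 (0.816 and 0.910) and the target HES1 (1.20) stayed within it. On the negative side 3 cells held 50% of the DLL1 UMIs.

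Of 8 measured retinoic acid genes, 3 were higher (2.46% of all genes) and 3 lower (5.19%) past the fold. Of the 8, 2 passed the 20 CPM limit through the retaining side alone and 2 through the negative side alone. The direction of these genes was fixed by that limit. The degrading enzyme CYP26A1, the receptor RARG at 2.01 (1.18 to 3.68) and the reductase DHRS3 at 1.55 were higher in retaining cells, and the binding proteins CRABP1 at 0.232 (0.198 to 0.272) and CRABP2 at 0.641 were lower. CRABP1 had 46.2 CPM in retaining and 199 CPM in negative cells, and 6 negative cells held 50% of its UMIs there. In cells of 5000 to 10000 UMIs the list had 0 members higher and 2 lower. With DNA methylation genes, 1 of 11 measured members was higher past the fold (2.46% of all genes) and none lower. It was the methyl-CpG binding protein MBD2 at 1.69 (1.29 to 2.25). DNMT1 had a ratio of 1.15 and DNMT3A of 0.923. None of 12 DNA demethylation genes and none of 8 Polycomb repressive complex 2 genes was past it, and 92.3% of all genes were not either.

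Growth and housekeeping lists differed little. None of 24 S phase, 32 G2/M, 20 cholesterol synthesis and 19 heat shock genes was past 1.5-fold, and 92.3% of all genes were not either. Their median log2 ratios were -0.09, -0.02, -0.01 and -0.02, against -0.03 for all genes. Glycolysis had 2 of 18 members past it, both lower in retaining cells (5.19% of all genes). They were the pyruvate kinase PKM at 0.649 (0.587 to 0.718) and the glucose transporter SLC2A3 at 0.617 (0.511 to 0.750). The glycolysis list as a whole leaned slightly the other way, with a median log2 ratio of 0.12. It summed to 4599 CPM in retaining and 4367 CPM in negative cells (ratio 1.05, 1.03 to 1.08). Markers of other cell types varied in level. The surface ectoderm and placode list, which holds CLDN6 and EPCAM, summed to 1073 CPM in retaining and 762 CPM in negative cells. Of its 5 measured members 1 was higher past the fold (2.46% of all genes). The mesoderm and fibroblast list summed to 242 CPM in retaining and 259 CPM in negative cells, with 0 of 3 past it. Its most abundant member was COL1A2, a chain of type I collagen, at 182 CPM in retaining and 178 CPM in negative cells. No mesendoderm, endoderm, trophoblast or amnion gene reached 20 CPM on either side, with sums of 3.95 and 4.49 CPM in retaining and 11.5 and 7.41 CPM in negative cells for mesendoderm with endoderm and for trophoblast with amnion. The muscle actin ACTA1 had 10.9 CPM in retaining and 52.5 CPM in negative cells. There 10 negative cells held 91.0% of its UMIs, and 1 cell alone held 41 of the 78.

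The negative cells were next divided by 2 of the lowest neural genes. At least 1 UMI of FEZF2 or LHX2 was present in 34 of 605 retaining cells (5.62%, 95% interval 3.92 to 7.76) and in 44 of 151 negative cells (29.1%, 22.04 to 37.08). After thinning each cell to 5000 UMIs the shares were 2.64% and 25.2%. In the library labelled day 2, which is high in POU5F1, the share was 7.11% before and 5.26% after thinning, at a median of 9661 UMIs, so the share of retaining cells is not above that level. At least 3 such UMIs were held by 5 retaining and 33 negative cells, and 28 of the 34 retaining cells had just 1. These 2 genes were chosen after their ratios were seen, so higher neural genes in the cells that hold them were fixed by that choice. The groups below describe the cells and support nothing on their own.

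The 44 negative cells with a UMI of either gene and the 107 without one differed in depth, with medians of 10745.5 and 7678 UMIs, and in mitochondrial share, with 11.5% and 15.5%. The core pluripotency sum was 5479 CPM in retaining cells, 5278 CPM in the 107 and 2941 CPM in the 44 negative cells. The neural progenitor sum without the 2 selecting genes was 1576 CPM in retaining cells, 1626 CPM in the 107 and 2629 CPM in the 44. The forebrain and eye field sum, also without these genes, was 673, 651 and 702 CPM in the same order. The neuron sum was 875, 963 and 1950 CPM and the Notch sum 279, 292 and 789 CPM. CUZD1 stood at 823 CPM in retaining cells, 711 CPM in the 107 and 107 CPM in the 44. DLK1 stood at 222 CPM in retaining cells, 336 CPM in the 107 and 4983 CPM in the 44.

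UMIs of both kinds of genes were detected in the same cells, although 28 of the 34 retaining cells had just 1 FEZF2 or LHX2 UMI. Whether such single UMIs came from the cell itself was not tested. No CUZD1 UMI was found in 24 of the 44 negative cells with a FEZF2 or LHX2 UMI and in 16 of the other 107, and PAX6 was present in 33 of the 44 and in 22 of the other 107. Among the 34 retaining cells with such a UMI, 1 had no CUZD1. Only 7 of the 151 negative cells, all among the 44, had counts nearer to the summed profile of the library labelled day 0 than to their own, as had 1 retaining cell, and 1 retaining cell was nearer to the library labelled day 2. PAX6 remained lower in retaining cells against the 107, at 23.7 CPM in retaining cells and 42.3 CPM in the 107, and FOXO1 remained higher, at 52.0 CPM in retaining cells and 32.0 CPM in the 107.

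**Figure D4:**
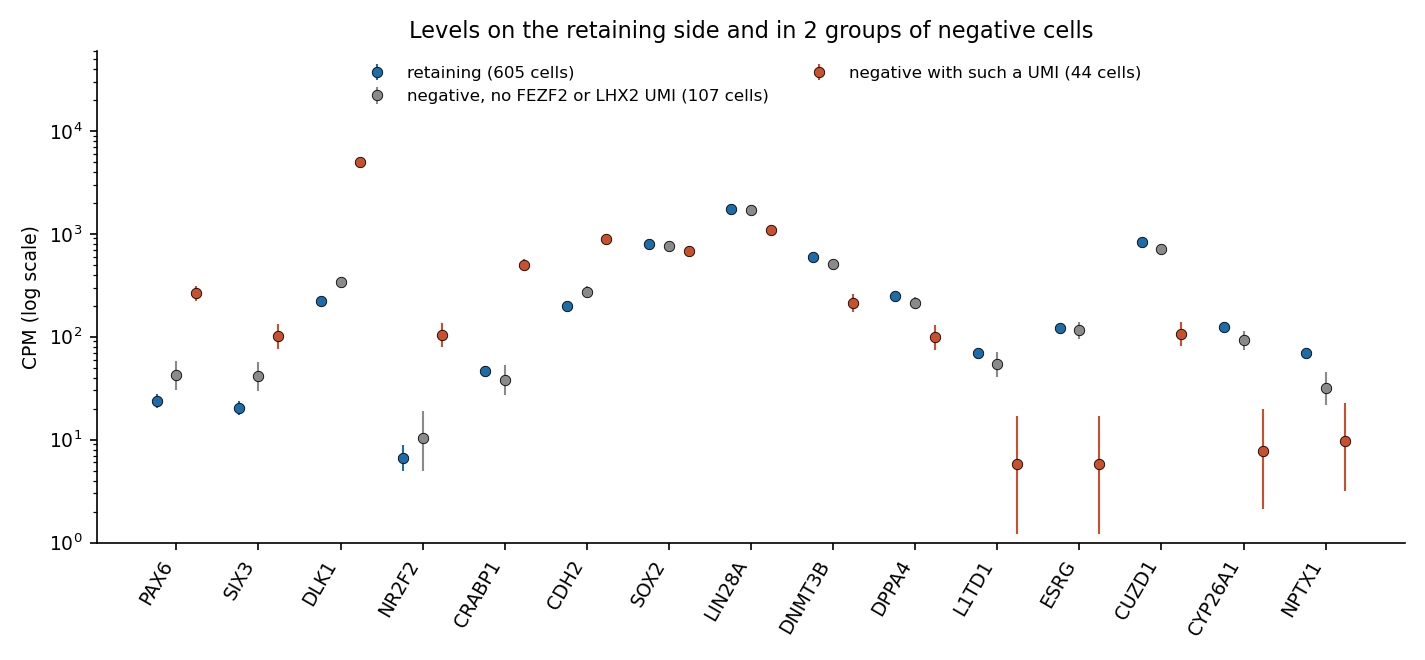
CPM on a log axis of 15 genes in retaining cells (blue), in negative cells without a FEZF2 or LHX2 UMI (grey) and in negative cells with one (red), with exact Poisson 95% intervals. The grey points lie close to the blue ones for SOX2, LIN28A and ESRG, and the red points stand apart for PAX6, DLK1, CUZD1 and L1TD1, as with DLK1 at 222 CPM in retaining cells and 4983 CPM in the red group.

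When all cells with such a UMI were left out, on both sides, 571 retaining and 107 negative cells remained. Then 215 of 7394 genes were higher (2.91%) and 216 lower (2.92%) past 1.5-fold. Of the 185 higher genes 75 were among them (40.5% of the 185 and 34.9% of the 215), and of the 391 lower genes 120 (30.7% of the 391 and 55.6% of the 216). None of the 15 core pluripotency genes was past the fold, and the list sum ratio was 1.05. Of 15 neural progenitor genes 6 were still lower past it, with a median log2 ratio of -0.05. The retinoic acid list had 0 of 5 members past it in either direction. In the neuron list 0 of 5 and in the Notch list 1 of 6 measured members were lower past it, with none higher. The cadherin and epithelial list had 2 of 10 members higher and none lower. Of 4 forebrain and eye field genes 1 was lower. Of 6 measured genes of the library labelled day 0, 5 were still lower. FOXO1 at 1.67, NPTX1 at 2.20, MT1H at 2.03 and MT1G at 2.00 kept a ratio past the fold, while CUZD1 at 1.17, ACOXL at 1.20, L1TD1 at 1.25 and ESRG at 1.05 did not. Of the lowest genes, ZBTB16 changed direction, with a ratio of 2.39 without these cells.

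Levels were next followed across the number of POU5F1 UMIs, in which cells with 1 UMI lie just outside the retaining side and cells with 2 just inside. DLK1 stood at 1951 CPM with none, 289.9 CPM with 1, 341 CPM with 2, 230.5 CPM with 3, 165 CPM with 4 to 5 and 126.5 CPM with 6 or more UMIs. LHX2 stood in the same order at 102, 14.1, 15.5, 8.62, 3.07 and 1.51 CPM. For these genes the largest step was between cells with none and cells with 1, and LHX2 was lower again in the upper bins. Some other genes had unlike levels in cells with 1 and cells with 2 UMIs, but on few UMIs or cells. NEUROD1 stood at 8.27 CPM with 1 and 0.499 CPM with 2, HES5 at 12.6 and 4.99 CPM, and DLL1 at 8.76 and 21.0 CPM. All NEUROD1 UMIs of the cells with 1 POU5F1 UMI came from 1 of the 219 cells. HES5 had 26 and 10 UMIs and DLL1 18 and 42 UMIs in these bins, with up to 18 DLL1 UMIs in a single retaining cell. DNMT3B stood at 402, 516, 564, 569.7, 603 and 632 CPM, and FOXO1 at 22.9, 34.0, 41.4, 52.9, 48.2 and 73.5 CPM. The neural progenitor sum was 2143 CPM with none and between 1554 and 1657 CPM in all 5 other bins. Median depth was also higher in the upper bins, at 15123.5 UMIs per cell with 6 or more, and its part in these levels was not tested.

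**Figure D5:**
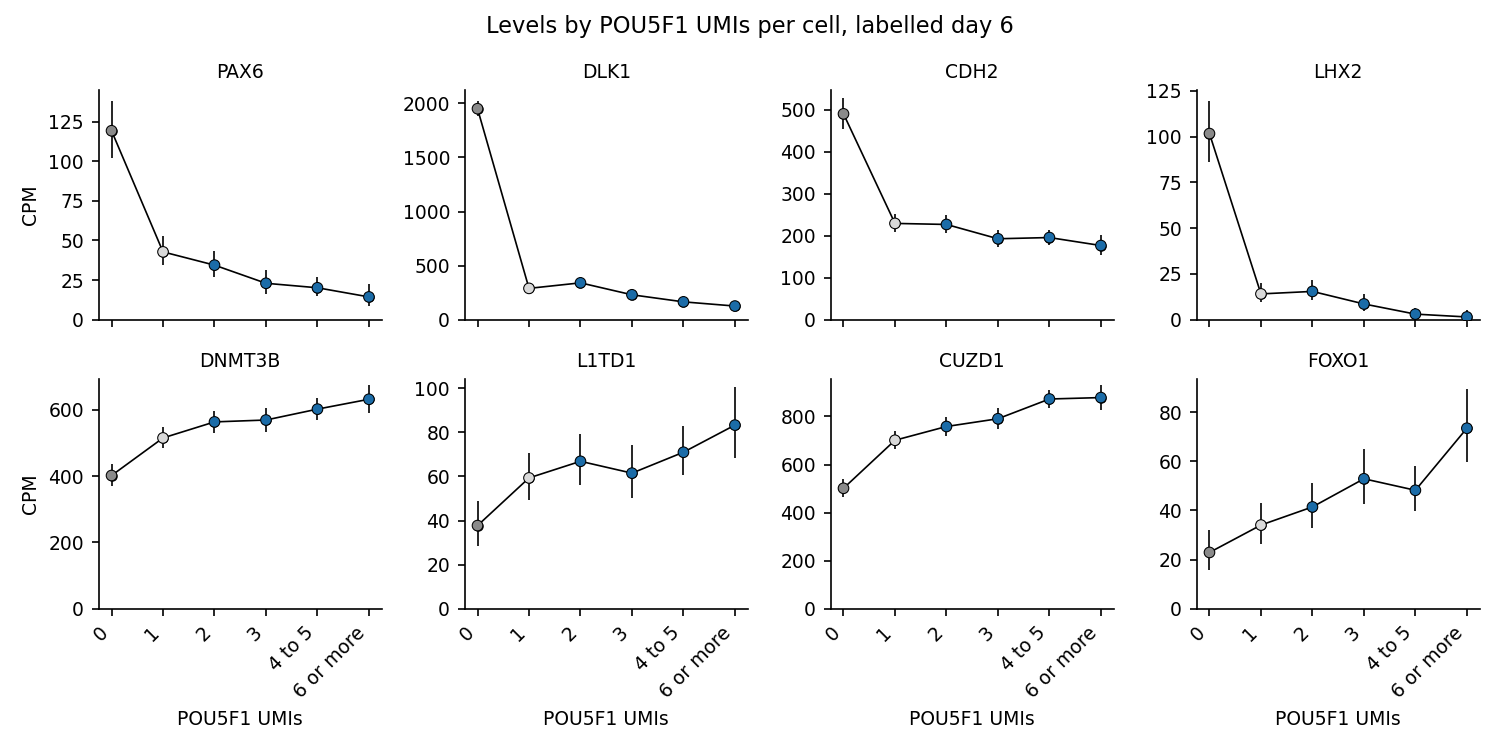
CPM of 8 genes in cells of the library labelled day 6 with 0, 1, 2, 3, 4 to 5 and 6 or more POU5F1 UMIs, with exact Poisson 95% intervals. Dark grey is the negative side, light grey the cells on neither side and blue the retaining side. DLK1 and LHX2 drop between 0 and 1 UMI, to 289.9 and 14.1 CPM, and FOXO1 stands at 73.5 CPM with 6 or more UMIs.

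Within bands of UMIs per cell the differences kept their direction for the pooled counts, with varying size. The bands narrow the gap in depth without closing it, with medians of 6058 UMIs in retaining and 5647 UMIs in negative cells in the lowest band. Pooled over the 4 bands, 195 genes were higher and 419 lower, and 172 of the 185 and 373 of the 391 genes were among them. PAX6 had ratios of 0.179, 0.195, 0.294 and 0.155 in cells with 5000 to 7000, 7000 to 9000, 9000 to 12000 and 12000 to 20000 UMIs. CUZD1 had ratios of 1.22, 1.54, 1.60 and 2.14, and NPTX1 of 1.47, 1.65, 2.91 and 8.58, in the same bands. NPTX1 rested on 5 UMIs of the negative side in the deepest band. When every cell was thinned to 5000 UMIs before the split, 301 cells were retaining and 332 negative. Of these 332 cells, 95 were on the retaining side of the main split, so the sides did not hold the same cells. In this setting 175 genes were higher (2.36%) and 339 lower (4.56%). Not all genes kept their direction there. Of the 185 genes 165 kept a ratio above 1 and 49 were past the fold (26.5% of the 185 and 28.0% of the 175), and of the 391 genes 362 kept a ratio below 1 and 133 were past it (34.0% of the 391 and 39.2% of the 339).

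The other libraries gave the levels of these genes in cells that the split did not use. Between the library labelled day 2 and that labelled day 0, 1120 of the 7527 genes (14.9%) had a ratio of at least 1.5, labelled day 2 over labelled day 0, and 1451 (19.3%) had a ratio of at most 1/1.5. Of the 185 genes that were higher in retaining cells, 117 (63.2%) had a ratio of at least 1.5 there too and 10 (5.41%) of at most 1/1.5. Of the 391 genes that were lower in retaining cells, 46 (11.8%) had a ratio of at least 1.5 and 217 (55.5%) of at most 1/1.5. The split within the library labelled day 6 thus mostly ran in the direction of the difference between the POU5F1-high and the POU5F1-low library, with exceptions. NEUROD1, a gene of the negative side, had 0.251 CPM in cells labelled day 2 and no UMI in cells labelled day 0. The same split could not be made in those libraries, which held 10 negative cells (labelled day 2) and 1 retaining cell (labelled day 0).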

How the data were processed

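Per the labels, single H9 cells were captured with inDrop (TruDrop). For each library the authors deposited whole-number counts per gene and barcode, taken here as UMI counts. The submitters' processing notes name STAR and the build hg38. The sources used here do not give the annotation, strand setting, barcode filter or removal of duplicate reads. Members and gene lists were chosen with earlier results of these data known.

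Counts were summed per side and divided by the side's total. Intervals are 95% (Poisson for levels, conditional binomial for ratios, Clopper-Pearson for shares) and cover counting error only, since UMIs of 1 library are not replicates. With 1 library per label no test was possible. The sides summed to 7344988 UMIs (retaining) and 1484647 UMIs (negative), where 3 UMIs are 0.408 and 2.02 CPM. Genes needed 20 CPM on 1 side. Named genes are the 12 highest and 12 lowest by the interval bound nearest to 1, a set of pluripotency, neural, cadherin and library genes, and up to 2 members of each of 35 lists (496 symbols, 2 matched by an older symbol, 3 unmatched). POU5F1, its pseudogenes and POU5F1B were left out. Coordinates of promoters come from RefSeq. Doublets were kept, since scrublet (scanpy 1.11.5) called 0 cells. Other settings varied the split, depth, mitochondrial share, scaling (TMM from edgeR 4.0.16), CPM minimum and fold. Some genes are not reported here. Calculations were tested on simulated data.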

Additional observations from a re-analysis of the deposited data

How the results depend on the processing

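Counts of genes past the fold depended on the setting (185 higher and 391 lower as reported). They were 19 and 105 with cells of 1 POU5F1 UMI added to the negative side, 508 and 680 in cells of 5000 to 10000 UMIs, 374 and 641 in cells of 10000 to 20000 UMIs and 1278 and 1467 in cells with 5 to 10% mitochondrial UMIs. They were 399 and 748 with a minimum of 10 CPM, 53 and 118 with 50 CPM, 88 and 185 with 20 CPM on both sides, 6800 and 4394 with no minimum, 552 and 902 at a fold of 1.3 and 23 and 120 at a fold of 2. Totals without mitochondrial and ribosomal protein genes gave 312 higher genes, and leaving out cells with a FEZF2 or LHX2 UMI 216 lower genes. Smaller groups of cells have larger counting error, and the cause of the other shifts was not tested.

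The core pluripotency sum ratio of 1.23 became 1.11 with cells of 1 UMI added to the negative side, 1.13 and 1.33 in cells of 5000 to 10000 and 10000 to 20000 UMIs, 1.11 after thinning, 1.42 and 1.19 with 5 to 10% and 10 to 25% mitochondrial UMIs, 1.29 with TMM, 1.18 as the mean of each cell's CPM, 1.05 without cells with FEZF2 or LHX2 and 1.11 without cells with no CUZD1. The neural progenitor sum ratio of 0.740 became 0.868 with cells of 1 UMI added, 0.804 and 0.706 in the shallower and deeper cells, 0.857 after thinning, 0.693 with 5 to 10% mitochondrial UMIs, 0.771 with no lower limit on that share, 0.780 with TMM, 0.771 without cells nearer to another library, 0.968 without cells with FEZF2 or LHX2 and 0.836 without cells with no CUZD1. Neither ratio crossed 1 in any of these settings. Without cells with a shared barcode, 235 genes were higher and 484 lower, and 153 of the 185 and 358 of the 391 were among them.

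Of 1860 values of named genes, 11 changed direction. MT1H at 0.927 and MT1G at 0.988 did so with 5 to 10% mitochondrial UMIs, and ACTA1 at 1.13 and ASNS at 1.02 in cells of 5000 to 10000 UMIs. Without cells with FEZF2 or LHX2, ZBTB16 stood at 2.39, ACTA1 at 2.14, ID4 at 1.36, CRABP1 at 1.17, SPRY1 at 1.05, FZD5 at 1.04 and MXI1 at 1.0006. Leaving out cells with FEZF2 or LHX2, with no CUZD1 or with a shared barcode was chosen after seeing the data. No paired analysis was possible because the libraries were not compared by a test and each label has 1 library. Depth limits the negative side most, since the retaining side had 7344988 UMIs and the negative side 1484647.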
